A study of Mus musculus with 2 samples.

Results

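The microRNA cluster carried by an intron of Sfmbt2 was examined in 2 libraries of short RNA from the hindbrain of mouse embryos at embryonic day 13.5. Its members were defined by place, with earlier results of these data known. They are the count rows of every annotated microRNA gene that lies inside the Sfmbt2 gene on chromosome 2 and on its strand. This rule gave 107 of the 1973 gene rows, or 5.42% of them. The libraries, replicate 1 and replicate 2, form 1 group of healthy tissue of strain B6NCrl with both sexes pooled and no treatment or genetic change named. They carry separate biosample identifiers and 1 shared donor identifier, but separate litters are not mentioned, so SDs measure only the spread of these libraries, some of which may be technical. With 1 condition, the data give levels in 1 tissue at 1 stage with the spread of these libraries.

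Sfmbt2 encodes a Polycomb group protein and is an imprinted gene, expressed from the paternal allele in extraembryonic tissue. The microRNAs of its intron, of the Mir297, Mir466, Mir467 and Mir669 families, are found in rodents, arose by repeated duplication of a short unit, and are best known from early embryos and placenta, where loss of the cluster impairs placental growth. A microRNA is cut from the arm of a hairpin transcript and guides the silencing of messenger RNAs that pair with its seed, bases 2 to 8 from its 5′ end.

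Mature sequences of relatives elsewhere in the genome are shown because they make visible the alternating purine and pyrimidine bases that mark these families, a feature that bears on how reads can be placed. They come from RefSeq on GRCm38.p6, whose table matched 9 of the 10 relatives of the same 4 families that have a count row and 0 of the cluster members. Capitals mark the seed.
mmu-miR-466q, chr3:28419988-28420007, plus strand: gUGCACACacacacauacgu
mmu-miR-467g, chr5:34732872-34732892, minus strand: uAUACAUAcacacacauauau
mmu-miR-467h, chr9:115381898-115381919, plus strand: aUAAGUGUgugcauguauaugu
mmu-miR-669n, chr3:115979905-115979924, plus strand: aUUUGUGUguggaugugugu

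No pair of these 4 sequences has the same seed, while stretches of alternating U and G, or of C and A, recur in all of them. On GRCm38, Sfmbt2 spans chr2:10370510-10595253 on the plus strand. The members lie between 10465287 and 10518279, a span of 53.0 kb that begins 94.8 kb after the start of the gene. All 107 lie in a single intron, chr2:10461473-10523944, intron 10 of the transcript Sfmbt2-201 and intron 11 of Sfmbt2-205. None of them overlaps an Sfmbt2 exon. The 3 other coding transcripts of Sfmbt2 end before the cluster. Neighbouring hairpins were separated by a median of 210 nt. Of the members, 59 bear microRNA family names and 48 have only provisional Gm names.

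Together the members held 15779 of 3006571 counts in replicate 1 and 21849 of 4508244 in replicate 2. In counts per 1000000 counts of all gene rows (CPM) this was 5248 (exact Poisson 95% interval 5167 to 5331) and 4846 (4782 to 4911), a mean of 5047 ± 284 CPM (SD, n = 2). The cluster thus supplied 0.525% and 0.485% of the counted microRNA reads. The intervals of the libraries do not overlap, and they cover counting error only. These counts come from the column taken as the strand of Sfmbt2. The opposite strand of the members had 0 counts in both libraries, which allows up to 3 counts over the cluster in each, while over all gene rows that strand had 57609 and 87500 counts.

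Few members carried the signal. With at least 10 counts in both libraries, 10 of the 107 members were detected, or 9.35%, against 18.0% of all gene rows. All 10 were among the 59 members with microRNA family names, of which they made up 16.9%. The 18.0% covers all rows whatever their names, so it is not the like share for these 59. With at least 1 count in some library there were 29 members, or 27.1%, against 36.3% of all gene rows, and 78 members had 0 counts in both. The 10 detected members held 99.8% of the cluster's counts in each library. For a member with 0 counts, the limit of 3 counts corresponds to 0.998 CPM in replicate 1 and to 0.665 CPM in replicate 2. This limit covers uniquely placed reads only.

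The Mir467 family gave most of the cluster's counts, 83.4% in replicate 1 and 81.4% in replicate 2, and all but a few of these came from 3 hairpins. Mir467c (ENSMUSG00000077049.2, chr2:10473931-10474027) was the highest member, with 5495 and 7261 counts in replicates 1 and 2, or 1828 and 1611 CPM. It ranked 77 among all 1973 rows by mean CPM. Mir467e (ENSMUSG00000076948.2, chr2:10505721-10505807) had 3753 and 5762 counts, or 1248 and 1278 CPM. Mir467d (ENSMUSG00000077021.2, chr2:10507630-10507714) had 3909 and 4753 counts, or 1300 and 1054 CPM. Mir467c stood above the other two in both libraries. Mir467e and Mir467d overlapped, since Mir467d was the higher in replicate 1 and Mir467e in replicate 2. Their means were 1719 ± 154 CPM for Mir467c, 1263 ± 21.1 CPM for Mir467e and 1177 ± 174 CPM for Mir467d (SD, n = 2 for each).

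The remaining 11 members of the Mir467 family were near 0. The 10 copies of Mir467a had 1 count in replicate 1, at Mir467a-1, and 0 in replicate 2. Mir467b, which lies among them, had 1 and 4 counts. Of the Mir467a copies 9 had 0 counts in both libraries.

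The Mir669 family held 16.0% and 17.7% of the cluster's counts in replicates 1 and 2, with 5 of its 20 members detected, and its sum was 839 and 859 CPM. Mir669o (ENSMUSG00000077086.1, chr2:10514300-10514395) led it with 1324 and 1930 counts, or 440 and 428 CPM. Mir669l (ENSMUSG00000076959.1, chr2:10468971-10469068) followed with 788 and 1273 counts, or 262 and 282 CPM. Mir669c (ENSMUSG00000076118.1, chr2:10509296-10509404) had 300 and 521 counts, or 99.8 and 116 CPM. These 3 kept their order in both libraries, each apart from the next. Mir669e (ENSMUSG00000080653.1, chr2:10467495-10467613) had 76 and 112 counts, or 25.3 and 24.8 CPM. Mir669h (ENSMUSG00000080594.1, chr2:10518155-10518279), the last hairpin of the cluster, had 25 and 34 counts, or 8.32 and 7.54 CPM. The 5 Mir669a and Mir669p copies with a row had 3 counts in replicate 1 and 1 in replicate 2, all at Mir669a-3.

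Counts of the Mir466 and Mir297 families were low by comparison, and they hold uniquely placed reads only. The 20 Mir466 rows summed to 23.6 and 33.3 CPM, nearly all from Mir466n (ENSMUSG00000077991.1, chr2:10513741-10513834), which had 64 and 134 counts, or 21.3 and 29.7 CPM. Mir466n and Mir669e overlapped, with Mir669e higher in replicate 1 and Mir466n in replicate 2. The 5 Mir297 rows summed to 4.66 and 5.99 CPM, with Mir297a-2 (ENSMUSG00000076983.2, chr2:10472254-10472343) at 13 and 23 counts, or 4.32 and 5.10 CPM. None of the 48 members with Gm names was detected. They summed to 14 and 18 counts. Outside the cluster the detected genes with Gm names were Gm23935, Gm23134, Gm23873 and Gm23450. The share of Gm-named rows detected there was not computed, so the lack of detection is not shown to be particular to the cluster.

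Below the detection limit of 10 counts, the members with the highest summed counts were Mir466o with 2 and 7 counts, Gm22925 with 5 and 4, Gm22072 with 2 and 6 and Mir669f with 5 and 3. By that sum the first pair tied, as did the second. No undetected member had more than 5 counts in replicate 1 or 7 in replicate 2. Mir297a-2, the lowest detected member, had 13 and 23 counts. Its counting interval in replicate 1, 2.30 to 7.39 CPM, overlapped that of Gm22925 and Mir669f, 0.54 to 3.88 CPM each. Read as levels, the detected members spanned from 4.71 ± 0.55 CPM for Mir297a-2 to 1719 ± 154 CPM for Mir467c. A microRNA read covers a whole mature strand, so CPM was not divided by length, and dividing the mean CPM by hairpin length left the order of the 10 as it was, from 17.7 CPM per nt for Mir467c to 0.0524 CPM per nt for Mir297a-2.

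**Figure D1:**
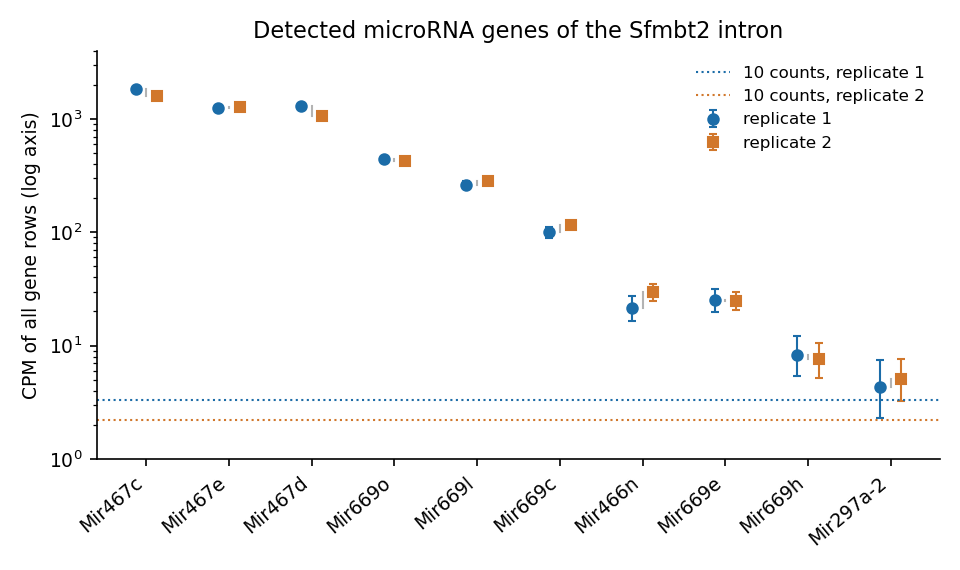
Levels of the 10 detected members in CPM of all gene rows on a log axis, by library, with exact Poisson 95% intervals as bars and grey lines joining the libraries. Dotted lines mark 10 counts in each library. The 3 leading Mir467 hairpins sit between 1054 and 1828 CPM, and the lowest member, Mir297a-2, at 4.32 and 5.10 CPM.

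Where the counted hairpins lie along the intron was uneven. The 55 rows from Mir467a-1 to Mir467a-10, a stretch of 27.0 kb in which the unit recurs with a median spacing of 2462 nt between Mir467a copies, had 2 counts in replicate 1 and 4 in replicate 2, and none of them was detected. The 20 rows before this stretch had 4 detected members and 6386 and 8686 counts, 40.5% and 39.8% of the cluster. The 32 rows after it had 6 detected members and 9391 and 13159 counts, 59.5% and 60.2% of the cluster. The flanks carried nearly everything that was counted, and the middle of the array almost nothing.

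Sequence sharing followed the same division. The deposited tables set aside reads that align in several places, so a hairpin that matches others can have fewer counts than it has reads. Each hairpin was cut into all its stretches of 20 nt, and a stretch was called shared when any other of the 2202 annotated mouse hairpins held it on either strand. Of the 107 members, 105 shared at least 1 stretch, or 98.1%, against 47.4% of the 1787 other hairpins with a row and a sequence. In 42 members every stretch was shared. Of these, 40 lay among the 55 rows of the middle, which hold only 33 distinct hairpin sequences. The 20 rows before are all distinct from each other, as are the 32 after. Over all 107 members there are 84 distinct sequences. The 10 Mir467a copies have 3 distinct sequences, with a median identity of 98.8% between copies.

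Among the 42 members with every stretch shared, 0 were detected and 41 had 0 counts in both libraries. Of the 63 members with some stretches shared, 10 were detected, or 15.9%. Elsewhere in the genome the same classes gave 5 of 222 hairpins detected, or 2.25%, and 75 of 625, or 12%, while 266 of the 940 hairpins with no shared stretch were detected, or 28.3%. Because multimapping reads are in no gene row, counts of members with shared stretches are uncertain. How many reads each lost was not tested. All 10 detected members are among them, and they had between 32.4% of their stretches unshared, in Mir297a-2, and 95%, in Mir669e. These stretches were unevenly placed in some hairpins. Mir297a-2 had 0 unshared stretches before the midpoint of the hairpin and 23 after it, Mir466n 5 and 34, and Mir467d 19 and 6. Every other detected member had at least 15 on each side. For Mir467c the unshared part was 60.3%, for Mir467e 57.4% and for Mir467d 37.9%. Multimapping reads made up 33.9% and 34.5% of all reads in replicates 1 and 2, and the tables do not say how many of them came from this cluster.

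**Figure D2:**
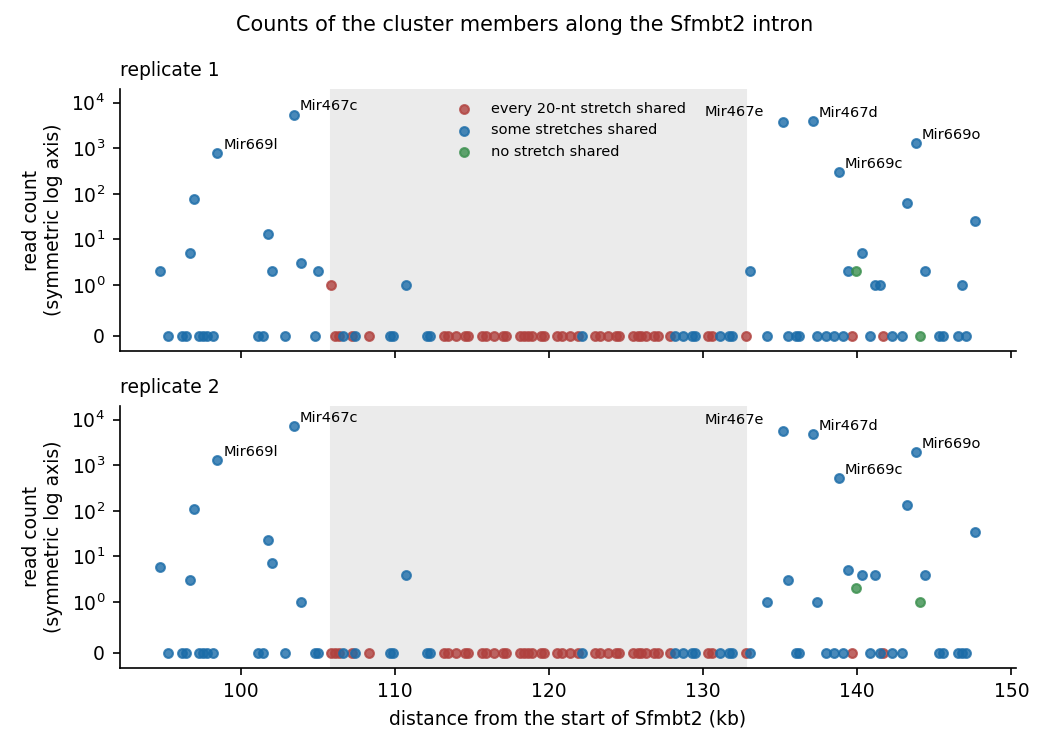
Read count of each of the 107 members (symmetric log axis, so that 0 can be drawn) against its distance in kb from the start of Sfmbt2, with replicate 1 above and replicate 2 below. Colour gives the share of 20-nt stretches found in other hairpins, and the grey band runs from Mir467a-1 to Mir467a-10. All 10 detected members lie outside the band.

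Having unshared sequence did not go with detection in every case. Of the undetected members, 34 had at least as large an unshared part as Mir297a-2, and 21 of these had 0 counts in both libraries. Members with at least 80% of their stretches unshared and no detection numbered 11. Among them Mir669b and Mir466l had 0 counts in both libraries, Mir466h had 2 and 4, and Mir466g, with no shared stretch at all, had 0 and 1. Gm22239, the other member with no shared stretch, had 2 counts in each library. Low counts were thus found both in hairpins with many near copies among the annotated hairpins and in some with few. The rest of the genome was not searched, so reads of an unshared stretch may still align in several places. Whether such reads were lost was not tested.

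The relatives of the same families outside the cluster had almost no counts. The 10 rows named Mir297, Mir466, Mir467 or Mir669 elsewhere, on chromosomes 3, 5, 7, 9, 10, 11 and 13, summed to 1 count in each library, both at Mir466q, which is 0.333 and 0.222 CPM. This list was taken by name and not by how the genes moved. None of the 10 was detected, and 9 had 0 counts in both libraries. The median share of unshared stretches was 70.0% in their hairpins, 54.7% in the detected members and 25.3% in all 107 members. These differences were not tested. Of the 10 relatives, 9 shared at least 1 stretch, with up to 127 other hairpins.

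Besides place, the members have in common a low GC content and long runs in which purines and pyrimidines alternate. The longest such run in a member had a median of 22 nt and ranged from 11 to 43 nt, against a median of 6 nt over the 1787 other hairpins. A run of at least 12 nt was present in 105 of 107 members, or 98.1%, and in 9.12% of other hairpins. The letters UGUGUG stood in 98 members, or 91.6%, against 12.7% of other hairpins, and CACACA, which is the same motif read on the other strand, in 87 members, or 81.3%, against 8.06%. These motifs lie within alternating runs, so they are not separate features. The median GC content was 38.3% in members and 52.0% in other hairpins. The detected members had a median run of 26 nt and a median GC content of 39.7%. Long runs, low GC content and the first of these motifs were not particular to the cluster. The 10 relatives outside it had a median run of 40 nt and a median GC content of 38.9%. All 10 held the letters UGUGUG and a run of at least 12 nt. The motif read on the other strand stood in 4 of the 10 relatives, or 40%, against 81.3% of members. This difference was not tested.

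**Figure D3:**
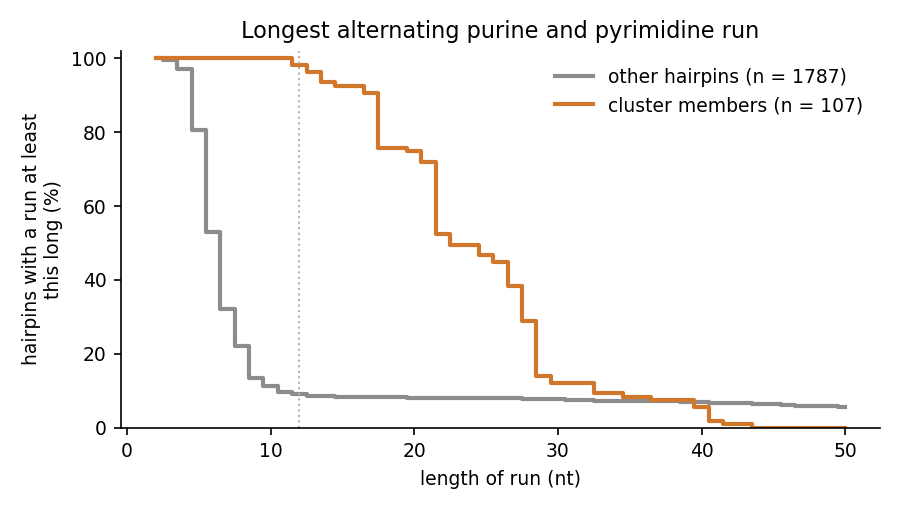
Share of hairpins, in percent, whose longest alternating purine and pyrimidine run reaches at least the length on the horizontal axis (nt), for the 107 members and for the 1787 other hairpins. The dotted line marks 12 nt, which 98.1% of members and 9.12% of other hairpins reach.

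Among the detected members, hairpins were related to different degrees. Over the 45 pairs of detected members the identity in a global alignment ran from 52.0% to 92.0%. Mir467e and Mir467d were the most alike, at 92.0%, and Mir467c was 83.7% identical to Mir467e and 83.5% to Mir467d. Of the 45 pairs 9 shared a stretch of 20 nt, and these included all 3 pairs of Mir467c, Mir467d and Mir467e. Mir467c and Mir467e had a common stretch of 48 nt, so a read lying wholly inside it matches both hairpins. The predicted folding energy per nt had a median of -0.402 kcal/mol in detected members, -0.360 in the 97 undetected members and -0.436 in the 346 other detected hairpins, with wide overlap of their ranges.

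The only comparison that the design allows is of replicate 2 with replicate 1. A two-sided exact binomial test on the counts, with TMM library sizes and Benjamini-Hochberg adjustment over all 356 detected genes, called 161 genes, or 45.2%, made up of 20.2% that were higher in replicate 2 and 25.0% that were lower. It holds counting error as the only error and compares these libraries, not conditions. Of the 10 detected members 2 passed it, both lower in replicate 2. Mir467d fell by 0.34 on the log2 scale (95% counting interval -0.40 to -0.28, adjusted p of the exact test 5.75e-26), and Mir467c fell by 0.22 (-0.27 to -0.17, adjusted p of the exact test 4.57e-16). Both differences lay within 1.5-fold.

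Mir467e did not follow its near copy Mir467d: its log2 ratio was -0.00 (95% counting interval -0.06 to 0.06, adjusted p of the exact test 1). Mir466n had the largest ratio in size among the detected members, 0.45 (0.01 to 0.90), and missed the threshold with an adjusted p of 0.0865 in the exact test. The other 6 detected members ran from -0.18 for Mir669h to 0.20 for Mir297a-2, all with adjusted p above the threshold of 0.05. All 10 lay within 1.5-fold between the libraries, as did 90.5% of all detected genes. The median log2 ratio was -0.03 over the detected members and -0.01 over all detected genes, and the median absolute ratio was 0.18 for both. With edgeR's exact test 0 members passed at a preset biological coefficient of variation of 0.1, which passed 3.65% of all detected genes. At the 0.141 estimated from the libraries 0 members passed, and 1.40% of all detected genes did. That estimate took these same libraries as 1 group, so it already holds the differences under test and few calls could follow. At an unadjusted p under 0.05 the edgeR tests also gave 0 members, against 28 and 19 of all 356 genes. The exact binomial test gave 3 members at that level, against 178 of all 356 genes.

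**Figure D4:**
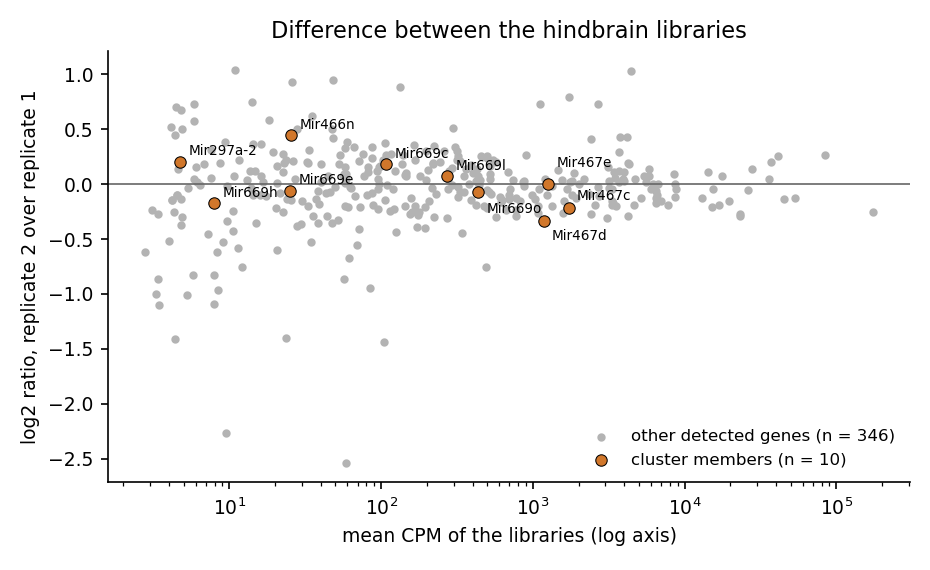
Log2 ratio of replicate 2 over replicate 1, scaled by TMM, against mean CPM on a log axis for the 356 genes with at least 10 counts in both libraries. The 10 cluster members lie between -0.34 and 0.45, within the spread of the other 346 genes.

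The tissue label was set beside marker lists, which were chosen with earlier results of these data known. The hindbrain and trunk genes Mir10a, Mir10b and Mir615 were all detected, with sums of 111460 and 135663 CPM in replicates 1 and 2. The neural list had 11179 and 11024 CPM, with 4 of 8 measured genes detected, namely Mir9-3, Mir137, Mir153 and Mir219a-2. The others were not detected: Mir9-2 had 9 and 15 counts, Mir124a-1 6 and 23, Mir124a-2 7 and 21, and Mir124a-3 6 and 2. How many multimapping reads these genes lost was not tested. Because the Sfmbt2 cluster is known from extraembryonic and pluripotent cells, their genes were listed too. Of 11 with a row 6 were detected, with sums of 1914 and 1778 CPM, almost all from the Mir302 genes. Among those of the Mir290 to Mir295 cluster, Mir293 had 21.3 and 23.5 CPM, Mir294 7.98 and 10.6 CPM, Mir292, named after its values were seen and not in the list, 6.98 and 3.55 CPM (21 and 16 counts), and Mir290a, Mir291a, Mir291b and Mir295 had at most 6 counts. Mir367 had 0 counts. Blood genes summed to 314 and 231 CPM. The muscle list had 32.6 and 64.1 CPM, all from Mir206, with its 3 other measured genes at 0, and the liver gene Mir122 had 36.9 and 42.8 CPM. The endothelial Mir126a stood at 20540 and 18917 CPM, and the multiciliated and choroid plexus list at 4953 and 9629 CPM. The part of any of these cells in the cluster's level was not tested. In tissue RNA, fewer cells of a type and less RNA per cell cannot be told apart.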

How the data were processed

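The authors deposited 1 table of raw counts for each library, made on mm10 and GENCODE M4 according to the README beside it. Aligner, counter and trimming: not given in the sources used here. Labels give a size range under 30 nt. Each table has 1973 gene rows, counts on either strand and on each strand, and 4 summary rows (reads unmapped, multimapping, outside features or ambiguous), which stayed out of library sizes. The third column, 98.1% of the either-strand counts in each library, was used; it totalled 3006571 counts in replicate 1 and 4508244 in replicate 2. Names, coordinates and hairpins came from GENCODE M21 on GRCm38, the assembly called mm10, and 1894 rows matched by identifier without version.

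CPM is per 1000000 counts of the gene rows. Detection needed at least 10 counts in both libraries. Intervals are exact Poisson (95%) and cover counting error only; no molecular identifiers are named. TMM factors came from edgeR 4.0.16 over all rows, alternatives from DESeq2 1.42.0, folding energies from RNAfold 2.7.2, alignments from Biopython 1.88. With 1 group, no test between conditions could be run. The exact binomial test was tested on simulated data that held counting error only, so the simulation does not cover other differences between libraries. The members and lists were chosen with earlier results of these data known. The text names every detected member, the highest of each family, the undetected members nearest the limit and the highest relatives; Mir669b, Mir466l, Mir466h, Mir466g, Gm22239, the Mir467a copies, Mir467b and Mir669a-3 were named after their values were seen.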

Additional observations from a re-analysis of the deposited data

How the results depend on the processing

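The cluster's summed level of 5047 CPM moved by less than 1 SD with the either-strand column and with TMM library sizes. It was 4846 CPM without replicate 1 and 5248 CPM without replicate 2, the values of the single libraries, which say nothing about stability. It was 2436 per 1000000 reads of the whole library, because the denominator then holds multimapping and unmapped reads, 3328 CPM without Mir467c, and 0.665 CPM over the 2 members that share no 20-nt stretch. The number of detected members, 10, became 20 with at least 1 count in both libraries, and stayed from 9 to 10 at minimums of 5 and 20 counts, with the either-strand column and without either replicate. The 2 members past the exact binomial test stayed 2 in number with totals, with DESeq2 size factors and without a count filter. With edgeR's exact test they became 0 at the preset coefficient of variation and 0 at the estimated one. The estimated one already holds the difference between these libraries, so it is no independent check. The median log2 ratio of detected members, -0.03, lay between -0.06 and 0.04 under all alternatives tried, on both sides of 0. The relatives outside the cluster summed to 0.222 to 0.333 CPM when 1 replicate was left out. No paired analysis was possible because the libraries form 1 group. For the 78 members without counts, depth alone allows uniquely placed reads up to 0.998 CPM in replicate 1 and 0.665 CPM in replicate 2. In 41 of them every stretch is shared, and in the other 37 some stretches are. For all 78 this limit does not cover reads set aside as multimapping.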

Other observations

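The annotation used here places 119 microRNA genes in the Sfmbt2 intron, all on the strand of Sfmbt2. Of these, 12 have no count row, among them Mir466b-1, Mir466e, Mir466c-1 and 9 of the Mir669a copies, Mir669a-4 to Mir669a-12, so their reads are in none of the sums. Set beside the cluster's 15779 and 21849 counted reads, the multimapping reads of the whole library numbered 132 and 150 per counted cluster read in replicates 1 and 2.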
